A study of Mus musculus with 12 samples.

Results

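The genes described here are the glucose transporter gene Slc2a1 and 9 genes of glycolysis and of the fate of its end product: Hk2, Gpi1, Aldoa, Tpi1, Pgk1, Pgam1, Eno2, Ldha and Pdk1. They were taken by name, and every array probe annotated to one of the 10 symbols was used. Of 45281 probes in the table, 14 were annotated to 8 of these genes. No probe was annotated to Hk2 or Gpi1, so these were not analysed here. A probe was kept when it exceeded the detection limit on at least 3 of the 12 arrays. This held for 13 of the 14 probes and for all 8 genes, out of 10050 genes tested. A gene's level is that of its brightest probe, as log2 of intensity plus 50.

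The levels were measured in B cells from the spleens of C57BL/6 mice aged 8 weeks, which in all 4 groups lacked 1 of the E2A (Tcf3) alleles. The cells were activated for 14 h with interleukin 4 (5 ng/ml) and CD40 ligand (200 ng/ml). They were then infected in repeated 12 h rounds, with lipopolysaccharide (200 ng/ml) added, by a retrovirus that carried E12 and GFP, and were sorted by GFP fluorescence. E12, a transcription factor of the helix-loop-helix family, is a product of Tcf3. The virus held wild-type E12 or a mutant E12, called calmodulin-resistant in the title of the series (calmodulin binds calcium and relays receptor signals). After a further 22 h in CD40 ligand and interleukin 4, cells were left untreated or received an F(ab')2 antibody against mouse IgM (anti-IgM, 2.5 μg/ml, 3 h), which crosslinks the antigen receptor. Each E12 form was thus studied untreated and with anti-IgM, which makes 4 groups of 3 arrays. The promoter that drove E12 in the virus is not given in the sources used here, and the cells kept 1 endogenous E2A allele. The labels do not say whether replicates came from separate mice or cultures, so the p-values measure the spread between these arrays, which may be technical.

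Glycolysis converts glucose to pyruvate in the cytosol. Slc2a1 encodes GLUT1, the transporter through which activated lymphocytes take up glucose. Aldolase and triosephosphate isomerase split the sugar and interconvert the products, and phosphoglycerate kinase, phosphoglycerate mutase and enolase carry these on towards pyruvate. Lactate dehydrogenase A reduces pyruvate to lactate, and pyruvate dehydrogenase kinase 1 holds back the entry of pyruvate into the mitochondrial cycle. Many of these genes are textbook targets of MYC and of the hypoxia-inducible factor HIF-1, and B cells raise glycolysis when they are activated.

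The DNA just before the starts of 5 of these genes is shown because the results turn on them: the anti-IgM responses of Slc2a1, Pgam1, Ldha and Eno2 differed between the E12 forms, and Tpi1 had the largest difference in level between the forms in untreated cells. Each sequence is the 250 bases before the start of the gene in RefSeq (build GRCm38.p6), read 5′ to 3′ on the strand of the gene. Capitals mark ACGTG, the core of the site that HIF-1 is known to bind, on either strand. Where CACGTG, the MYC type of E-box, occurs, it holds ACGTG on both strands.
Slc2a1, chr4:119108495-119108744, plus strand: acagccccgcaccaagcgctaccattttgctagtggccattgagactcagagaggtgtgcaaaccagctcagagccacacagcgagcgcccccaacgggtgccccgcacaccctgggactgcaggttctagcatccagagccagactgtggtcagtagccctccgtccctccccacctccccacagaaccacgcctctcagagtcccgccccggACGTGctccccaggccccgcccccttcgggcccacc
Pgam1, chr19:41911621-41911870, plus strand: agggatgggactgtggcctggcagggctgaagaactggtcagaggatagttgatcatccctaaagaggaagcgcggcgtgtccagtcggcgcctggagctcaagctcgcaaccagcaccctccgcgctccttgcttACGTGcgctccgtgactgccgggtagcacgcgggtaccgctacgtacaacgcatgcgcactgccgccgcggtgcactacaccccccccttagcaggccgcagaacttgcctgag
Ldha, chr7:46845554-46845803, plus strand: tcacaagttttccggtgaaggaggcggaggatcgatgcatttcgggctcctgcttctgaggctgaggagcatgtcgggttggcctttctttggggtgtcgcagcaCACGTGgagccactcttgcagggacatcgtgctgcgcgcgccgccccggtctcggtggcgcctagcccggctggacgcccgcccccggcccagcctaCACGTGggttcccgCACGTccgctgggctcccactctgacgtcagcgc
Eno2, chr6:124769674-124769923, minus strand: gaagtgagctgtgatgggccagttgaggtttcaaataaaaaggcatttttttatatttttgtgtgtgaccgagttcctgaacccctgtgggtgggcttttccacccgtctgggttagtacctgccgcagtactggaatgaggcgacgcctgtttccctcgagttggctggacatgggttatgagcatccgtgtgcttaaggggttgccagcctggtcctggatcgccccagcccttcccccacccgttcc
Tpi1, chr6:124814159-124814408, minus strand: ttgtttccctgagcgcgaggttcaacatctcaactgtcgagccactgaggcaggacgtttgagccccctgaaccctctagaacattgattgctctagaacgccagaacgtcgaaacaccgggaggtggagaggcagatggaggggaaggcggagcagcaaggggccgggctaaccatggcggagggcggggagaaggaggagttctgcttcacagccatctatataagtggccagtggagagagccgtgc

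The same motifs were searched on both strands before all 12 annotated starts of the 8 measured genes. ACGTG was found before at least 1 start of Slc2a1, Aldoa, Pgk1, Pgam1 and Ldha, which is 5 of 8 genes and 6 of 12 starts, against 16.6% of 32851 starts of all genes. The sites of Aldoa before its starts 2 and 3 are the same site, because these windows overlap. In Slc2a1 the match began at base -36 from the start and in Pgam1 at base -114. The Ldha window held 5 matches, 4 of which were the overlapping strands of 2 CACGTG sites beginning at bases -145 and -48. CACGTG was found before no other of the 8 genes, so before 1 of 12 starts, against 6.02% of all starts. GCGTG, another form of the HIF-1 core, was found before 4 of 8 genes and 4 of 12 starts, against 28.2% of all starts. The E-boxes that E proteins such as E12 are known to bind were each found before 1 gene: CAGGTG was found before 1 start of Ldha (17.2% of all starts) and CAGCTG before 1 start of Pdk1 (13% of all starts). Tpi1 and Eno2 held none of the 5 motifs in these windows. These matches describe the letters only and do not show binding.

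Within groups, the correlation between arrays over the 10050 genes ran from 0.978 to 0.997; genes are no independent replicates. Between 16667 and 18124 probes exceeded the detection limit on each array. Tcf3, the gene of E12, was at 10.50, 10.61 and 11.01 log2 units in wild-type E12 untreated cells and at 11.91, 12.31 and 12.93 in mutant E12 untreated cells. Its signal was thus higher in the arrays of the mutant. Whether its probe reads the viral transcript, the endogenous transcript or both was not tested. Of the B cell markers, Cd79b, Ms4a1, Cd22, Cd74 and Blk were above the limit on all 12 arrays, Cr2 on 6 and Pax5 on 0, and Cd79a had no named probe. Replicate 1 of the wild-type E12 untreated group stood apart from the other 2 arrays of that group. Its mean correlation with its group was 0.979 against 0.988 and 0.987 for the others. The summed intensity of the 7 myeloid markers tested was 2840 on it, against 1020 and 1080 on the other arrays of its group. That array also held the lowest level of Aldoa, Pgk1, Pgam1 and Eno2 within its group. Where a call printed for a gene, or a count of a list, changes without it, the value without it is therefore given as well. Among the mutant E12 arrays, treated replicate 1 (0.980) and untreated replicate 3 (0.981) had nearly as low a mean correlation with their groups. The summed NK cell markers (Prf1 and Nkg7) were 2630 on that treated array, against 831 and 730 on the others of its group.

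**Figure D1:**
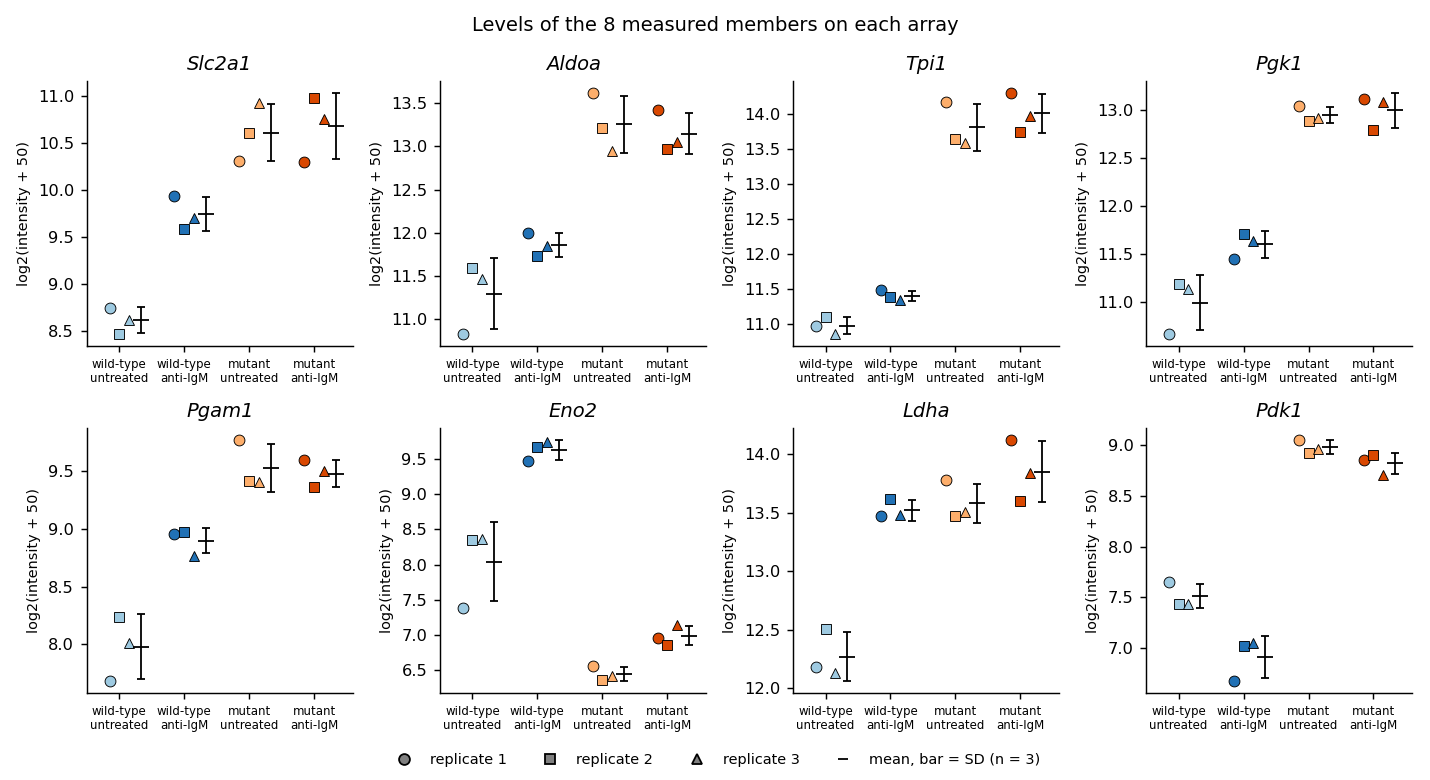
Log2 level (intensity plus 50, y axis) of the 8 measured genes on each of the 12 arrays, by group (x axis); each panel has its own y range, symbols give the replicate number, and the bar is the mean ± SD of 3 arrays. The mutant E12 arrays lie above all wild-type E12 untreated arrays for every gene except Eno2, where they lie below.

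With wild-type E12, 3 h of anti-IgM raised 6 of the 8 measured genes and lowered 1. Eno2, the enolase isoform best known from neurons, rose 3.02-fold, Ldha 2.38-fold, Slc2a1 2.19-fold and Pgam1 1.90-fold. Pgk1 and Aldoa rose about 1.5-fold (1.52 and 1.49). Pdk1, whose product restrains pyruvate oxidation, fell to 0.662 of its untreated level. Tpi1 was 1.35-fold higher and missed the threshold. The folds are ratios of intensity plus 50. Of all 10050 genes 31.3% passed in this comparison, 15.1% being higher and 16.2% lower, in limma's fit with Benjamini-Hochberg adjustment at 0.05. Treatment separated the arrays of all 8 genes without overlap, upward for 7 (23.7% of all genes) and downward for 1 (26.7%). The median change of the 8 genes was 0.77 log2 units, beside -0.02 for all genes.

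Slc2a1 stood at 8.75, 8.47 and 8.62 log2 units on the untreated arrays and at 9.94, 9.59 and 9.70 after anti-IgM. The 2 sets did not overlap, and the rise was 1.13 ± 0.18 (SE, n = 3 per group; limma adjusted p = 0.000368). By replicate number, which may not mark pairs, the rise was 1.19, 1.12 and 1.08.

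Aldoa, which cleaves fructose 1,6-bisphosphate, was at 10.82, 11.59 and 11.46 untreated and at 12.00, 11.73 and 11.85 after anti-IgM. All treated arrays were higher, and replicate 1 was the lowest untreated array. The rise was 0.57 ± 0.21 (adjusted p = 0.0481), and without that array it was 0.34 (adjusted p = 0.207). The call was also lost on leaving out untreated replicate 3 or any of the 3 treated arrays with wild-type E12, or untreated replicate 2, treated replicate 2 or treated replicate 3 with mutant E12 (adjusted p from 0.0519 to 0.155). Tpi1, which interconverts the 2 triose phosphates, was at 10.98, 11.10 and 10.86 untreated and at 11.49, 11.39 and 11.35 treated. Its treated arrays were all higher, and the difference was 0.43 ± 0.17 (adjusted p = 0.0676). Blocking on the replicate number, separately in each form, gave Tpi1 an adjusted p of 0.0102, and all 8 genes then passed, where 39.1% of all genes did. With 1 block shared by all groups Tpi1 passed as well (adjusted p = 0.0403), and Aldoa did not (adjusted p = 0.0624). Tpi1 also passed on leaving out untreated replicate 1 or treated replicate 1 with mutant E12 (adjusted p = 0.0323 and 0.0433). Another Tpi1 probe gave 0.59 ± 0.18 (adjusted p = 0.0239 over all probes, 27% of which passed) and the dimmest of the Tpi1 probes gave 0.40 (adjusted p = 0.316).

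Among the enzymes that act on the phosphorylated acids of lower glycolysis, Pgk1 was at 10.66, 11.18 and 11.13 untreated and at 11.45, 11.71 and 11.63 treated. It makes ATP from 1,3-bisphosphoglycerate, and its signal rose by 0.61 ± 0.15 (adjusted p = 0.00676), or by 0.44 without untreated replicate 1 (adjusted p = 0.025). A dim Pgk1 probe, with group means from 6.21 to 6.67, gave 0.00 ± 0.12, so the Pgk1 probes disagreed, and with the mean of its probes the rise was 0.30 (adjusted p = 0.0696). Pgam1, phosphoglycerate mutase, was at 7.68, 8.24 and 8.01 untreated and at 8.96, 8.97 and 8.77 treated. The groups were apart by 0.92 ± 0.15 (adjusted p = 0.000423), and the other Pgam1 probe gave 0.73 ± 0.16 (adjusted p = 0.00419). Eno2 was at 7.39, 8.35 and 8.37 untreated and at 9.47, 9.68 and 9.74 treated. Its rise of 1.59 ± 0.21 (adjusted p = 5.87e-05) was 1.27 without untreated replicate 1 (adjusted p = 1.64e-05), and it was the largest of the 8 with or without that array.

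Of the genes that set the fate of pyruvate, Ldha was at 12.18, 12.51 and 12.13 untreated, and reached 13.47, 13.62 and 13.48 after anti-IgM. The rise of 1.25 ± 0.15 had the smallest adjusted p of the 8 genes (3.12e-05). Pdk1 moved the other way, from 7.65, 7.43 and 7.43 to 6.67, 7.02 and 7.05. All treated arrays were lower, and the change was -0.60 ± 0.13 (adjusted p = 0.00267). Another Pdk1 probe was above the detection limit on all 3 untreated arrays and on 0 of 3 treated arrays, where it was at least 1.15-fold lower, a difference that missed the threshold (adjusted p = 0.0727). This bound sets the untreated mean against the detection limit, on the scale of intensity plus 50.

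The summed intensity of the 2 NK cell markers tested (Prf1 and Nkg7, of 7 listed) ran from 3810 to 5860 on untreated and from 1490 to 2000 on treated arrays with wild-type E12, while Ncr1 and Gzmb were above the limit on 0 arrays. Of these 2, Prf1 fell (-1.45 ± 0.38, adjusted p = 0.00905), whereas Nkg7 was 0.36 higher (adjusted p = 0.162). Without untreated replicate 1, Prf1 fell and Nkg7 rose (-1.27 and 0.54, adjusted p = 0.037 and 0.0316). The 7 of 12 myeloid markers tested ran from 1020 to 2840 untreated and from 833 to 1200 treated, with Itgam and S100a9 above the limit on 0 arrays, and of these 7 Adgre1 and Mpeg1 fell and Fcer1g rose. The 6 B cell markers tested ran from 74100 to 93500 untreated and from 76200 to 79100 treated. Of these 6, 3 fell and 0 rose (16.2% and 15.1% of all genes). Without untreated replicate 1, Cd79b, Ms4a1 and Cd22 changed by -1.18, -0.90 and -1.37 (limma adjusted p = 9.8e-05, 0.000716 and 0.000908). In sorted cells measured in bulk, a change in the share of a cell type and a change in RNA per cell cannot be told apart, and the part of these markers in the rises was not tested. Without the array that carried the most myeloid signal, 5 of the 8 genes still rose and 1 fell, where 28.4% of all genes passed.

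With mutant E12 none of the 8 genes passed the threshold after anti-IgM, while 0.229% of all genes, 23 in number, did (limma, adjusted p under 0.05; 922 genes had an unadjusted p under 0.05). On leaving out 1 array the 23 became as few as 2 (without untreated replicate 2 of mutant E12) and as many as 57 (without untreated replicate 1 of wild-type E12). Among the 8, Eno2 alone had an unadjusted p under 0.05, and with limma's array weights it was called (0.64, adjusted p = 0.0162). With these weights 717 genes passed in this comparison, 7.13% of all genes. The median change of the 8 was 0.06 log2 units.

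Slc2a1 was at 10.31, 10.61 and 10.92 on the untreated and at 10.30, 10.98 and 10.76 on the treated arrays, which overlapped. The difference was 0.07 ± 0.18, with a 95% interval from -0.33 to 0.46. Aldoa was at 13.62, 13.22 and 12.95 untreated and at 13.42, 12.97 and 13.05 treated, again with overlap (interval from -0.56 to 0.32). The Slc2a1 interval ends below that of its response with wild-type E12 (0.73 to 1.53). The Aldoa interval overlaps that of its response with wild-type E12 (0.13 to 1.01). Tpi1 was at 14.18, 13.64 and 13.59 untreated and at 14.30, 13.75 and 13.98 treated, and its interval ran from -0.16 to 0.57.

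Pgk1 was at 13.04, 12.89 and 12.92 untreated and at 13.12, 12.79 and 13.09 treated (interval from -0.27 to 0.37). Pgam1 was at 9.77, 9.42 and 9.41 untreated and at 9.60, 9.36 and 9.50 treated (interval from -0.38 to 0.28). Neither gene separated the groups. Ldha was at 13.78, 13.47 and 13.51 untreated and at 14.12, 13.60 and 13.84 treated. Its groups overlapped, but each treated array was above the untreated array of the same number (by 0.34, 0.13 and 0.34). The difference was 0.27 ± 0.15 (interval from -0.05 to 0.59, adjusted p = 0.671).

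Eno2 and Pdk1 were the 2 genes whose mutant E12 groups did not overlap. Eno2 was at 6.56, 6.36 and 6.41 untreated and at 6.95, 6.86 and 7.14 treated, a difference of 0.55 ± 0.21 (unadjusted p = 0.0206, adjusted p = 0.40). Pdk1 was at 9.05, 8.92 and 8.96 untreated and at 8.85, 8.90 and 8.71 treated, a difference of -0.15 ± 0.13 (adjusted p = 0.847). Non-overlap was found for 6.59% of all genes upward and 5.5% downward in this comparison. Both differences had the same sign as with wild-type E12.

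**Figure D2:**
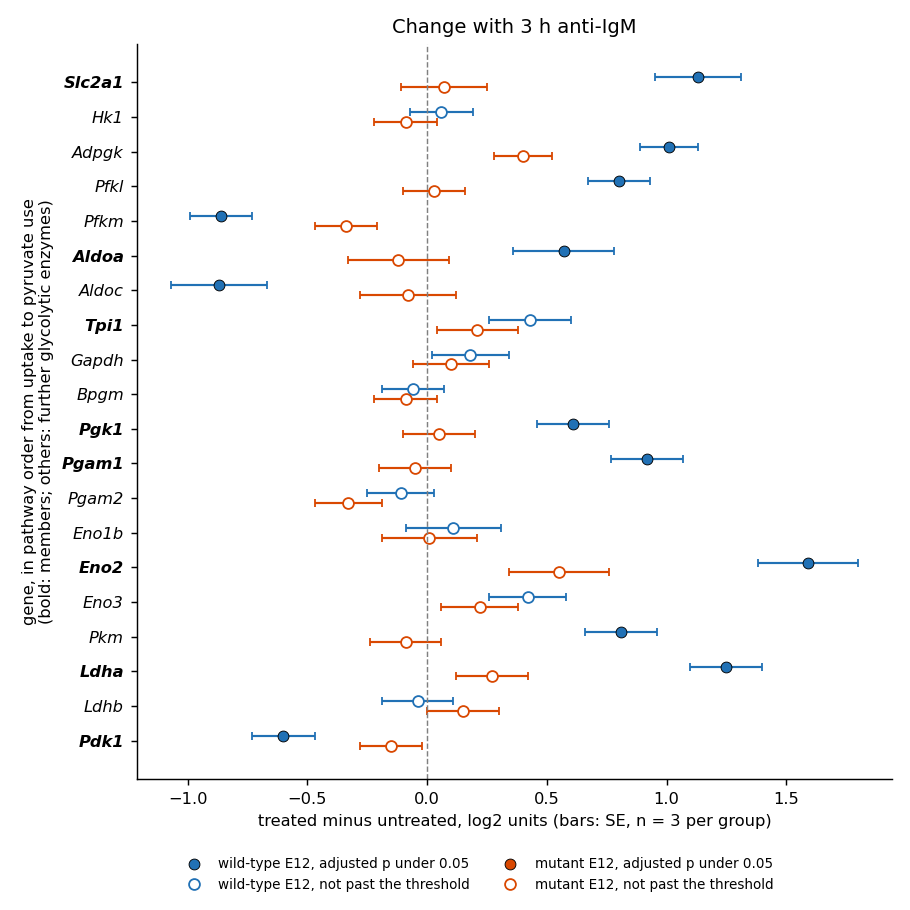
Change in log2 level with anti-IgM (x axis, treated minus untreated, bars SE, 3 arrays per group) for the 8 measured genes in bold and 12 further glycolytic enzymes, in pathway order (y axis), with wild-type E12 in blue and mutant E12 in orange; filled points passed an adjusted p of 0.05. Filled points are seen for 7 of the 8 genes with wild-type E12 and for none of the genes drawn with mutant E12.

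The difference between the 2 responses was tested directly, as the response with mutant E12 minus that with wild-type E12. Slc2a1, Pgam1, Ldha and Eno2 responded less with the mutant, which is 4 of 8 genes, where 6.95% of all genes passed and 3.46% passed in the lower direction. The difference was -0.98 ± 0.21 log2 units for Ldha (limma adjusted p = 0.0138) and -0.97 ± 0.22 for Pgam1 (adjusted p = 0.0156). It was -1.06 ± 0.26 for Slc2a1 (adjusted p = 0.0246) and -1.05 ± 0.30 for Eno2 (adjusted p = 0.0473). At the Eno2 probe the mutant E12 arrays were dim, with deposited intensities of 42.3, 30.3 and 33.4 untreated and 73.7, 65.6 and 92.2 treated. The wild-type E12 arrays were at 113, 253 and 258 untreated and at 551, 637 and 661 treated. The offset of 50 understates changes of dim probes, and with an offset of 16 the Eno2 difference was -0.93 (adjusted p = 0.174). How much of it stems from the offset was not tested. The median of the 8 was -0.83, beside 0.01 for all genes.

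The other 4 did not pass. The difference was -0.69 ± 0.29 for Aldoa (adjusted p = 0.187), -0.56 ± 0.21 for Pgk1 (adjusted p = 0.138), 0.44 ± 0.18 for Pdk1 (adjusted p = 0.173) and -0.22 ± 0.24 for Tpi1 (adjusted p = 0.664). A response to anti-IgM that passed with wild-type E12 and not with the mutant is therefore not shown to differ between the forms for Aldoa, Pgk1 or Pdk1. For Pgk1 the test passed with replicate number as a block within form (adjusted p = 0.0417). The other Pgam1 probe gave -0.76 ± 0.23 (adjusted p = 0.0766 over all probes, 5.06% of which passed).

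The calls for Ldha and Pgam1 held on leaving out any of the 12 arrays, whereas those for Slc2a1 and Eno2 did not. The Slc2a1 call was lost without untreated replicate 2, treated replicate 1 or treated replicate 3 of wild-type E12, or without untreated replicate 2 of mutant E12 (adjusted p from 0.0523 to 0.0776). The Eno2 call was lost without any of the 3 treated wild-type E12 arrays or any of the 6 mutant E12 arrays (adjusted p from 0.0563 to 0.114), and its value without wild-type E12 untreated replicate 1 was -0.72 (adjusted p = 0.0243). The number of genes called was 2 without treated replicate 1 or 3 of wild-type E12, or without untreated replicate 2 of mutant E12. On the deposited scale, without joint normalization, Ldha and Pgam1 passed (-0.87 and -0.89, adjusted p = 0.0297 and 0.0375), while Slc2a1 and Eno2 did not (-0.92 and -0.85, adjusted p = 0.0787 and 0.121).

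In untreated cells 7 of the 8 genes were higher with mutant E12 and Eno2 was lower, where 42.6% of all genes passed, 20.4% of all genes higher and 22.2% lower. Tpi1 was 7.09-fold higher, Slc2a1, Aldoa and Pgk1 between 3.90-fold and 3.99-fold, and Pgam1, Pdk1 and Ldha between 2.48-fold and 2.94-fold. Eno2 was at 0.331 of its wild-type E12 level. The groups did not overlap for any of the 8 genes. Higher non-overlap was seen for 24% of all genes and lower non-overlap for 25.4%.

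In log2 units the difference was 2.83 ± 0.17 for Tpi1 (limma adjusted p = 5.57e-08), 2.00 ± 0.18 for Slc2a1 (adjusted p = 2.14e-06), 1.97 ± 0.21 for Aldoa (adjusted p = 5.78e-06) and 1.96 ± 0.15 for Pgk1 (adjusted p = 3.63e-07). It was 1.56 ± 0.15 for Pgam1, 1.47 ± 0.13 for Pdk1, 1.31 ± 0.15 for Ldha and -1.59 ± 0.21 for Eno2, with adjusted p from 1.18e-06 to 4.21e-05. The median of the 8 was 1.76, beside 0.01 for all genes. Further probes moved the same way by other amounts (41.4% of all probes passed): 2.56 and 1.43 for Tpi1, 0.45 for Pgk1 (adjusted p = 0.00795), 0.68 for Pgam1 (adjusted p = 0.00418) and 0.36 for Pdk1, which missed the threshold (adjusted p = 0.0577). Glycolytic genes have many processed pseudogenes in the mouse genome, and whether any probe also takes up such transcripts was not tested.

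With anti-IgM, 6 genes were higher with mutant E12 and Eno2 was lower (43.5% of all genes passed, 21.3% of all genes higher and 22.2% lower). The difference was 2.60 ± 0.17 for Tpi1, 1.91 ± 0.13 for Pdk1, 1.40 ± 0.15 for Pgk1, 1.29 ± 0.21 for Aldoa, 0.93 ± 0.18 for Slc2a1 and 0.59 ± 0.15 for Pgam1 (adjusted p from 1.09e-07 to 0.00666). For Eno2 it was -2.64 ± 0.21 (adjusted p = 5.07e-07). The other Pdk1 probe, below the limit on all 3 wild-type E12 arrays, was at least 1.39-fold higher with mutant E12 (adjusted p = 0.00243). For Ldha the arrays overlapped and the difference was 0.33 ± 0.15 (adjusted p = 0.0935), although it passed without mutant E12 treated replicate 2 (0.46, adjusted p = 0.0351). The groups did not overlap for the other 7 genes, upward for 6 (28.2% of all genes) and downward for 1 (29.9%). The other Pgam1 probe gave -0.08 (adjusted p = 0.731, where 40.1% of all probes passed), and the mean of the Pgam1 probes gave 0.25 (adjusted p = 0.129).

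The order of the groups was shared by most of the genes. For Slc2a1, Aldoa, Tpi1, Pgk1 and Pgam1 the mean was lowest in wild-type E12 untreated cells, next in wild-type E12 cells with anti-IgM and highest in the mutant E12 groups, which overlapped each other. For Pdk1 the wild-type E12 groups changed places, and for Eno2 both mutant E12 groups lay below both wild-type E12 groups. The untreated mutant E12 arrays lay above every wild-type E12 array treated with anti-IgM for 6 genes (30.4% of all genes) and below them for Eno2 (31.4% of all genes). Ldha was the exception, with 13.78, 13.47 and 13.51 in untreated mutant E12 cells beside 13.47, 13.62 and 13.48 in treated wild-type E12 cells. This overlap was seen on the jointly normalized scale, and the deposited intensities of Ldha were apart, at 18100, 15100 and 15700 beside 7340, 8150 and 7290. The order of its means was that of Slc2a1.

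As read from the medians of the deposited values (6.93 to 6.94 with wild-type E12, 6.40 with mutant E12), the 2 E12 forms appear to have been normalized separately. The sources used here do not state this. The E12 form and the processing can therefore not be told apart. All 12 arrays were quantile-normalized together here. Without that step the median of all genes shifted by 0.13 log2 units in untreated and 0.11 in treated cells, and all 8 genes kept the sign of their difference. The untreated difference was then 3.62 for Tpi1, 2.81 for Aldoa, 2.77 for Pgk1, 2.41 for Slc2a1 and 2.24 for Ldha. The treated difference was 3.43 for Tpi1, 1.37 for Ldha (adjusted p = 3.29e-06), 2.21 for Aldoa, 2.27 for Pgk1, 1.49 for Slc2a1 and 0.95 for Pgam1. Other values moved with the form as well: Tcf3 was higher with the mutant by 1.68 ± 0.35 in untreated and 1.55 ± 0.35 in treated cells (adjusted p = 0.00153 and 0.00249). Its treated arrays were at 11.27, 12.79 and 12.54 with mutant E12 beside 11.17, 10.45 and 10.34 with wild-type E12. Replicate 1 of the mutant was thus close to the highest wild-type E12 value. The summed B cell markers ran from 60600 to 66400 on mutant E12 untreated arrays, against 74100 to 93500 with wild-type E12, and Cr2 was above the limit on 0 of the 6 mutant E12 arrays. Of the 6 B cell markers tested, 5 were lower and 0 higher with the mutant in untreated cells (22.2% and 20.4% of all genes). The 2 T cell markers tested (Cd8b1 and Thy1, of 8 listed) ran from 1530 to 2000 on mutant E12 untreated arrays against 836 to 1320 with wild-type E12. Of these 2, 0 passed in untreated cells, and 2 were higher with the mutant in treated cells (21.3% of all genes). Cd3e, Cd3g, Cd4 and Cd8a were above the limit on 0 arrays. The NK cell markers ran from 691 to 1520 and the myeloid markers from 571 to 737 on mutant E12 untreated arrays, both below the wild-type E12 untreated ranges given above. The part of these markers in the differences was not tested.

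**Figure D3:**
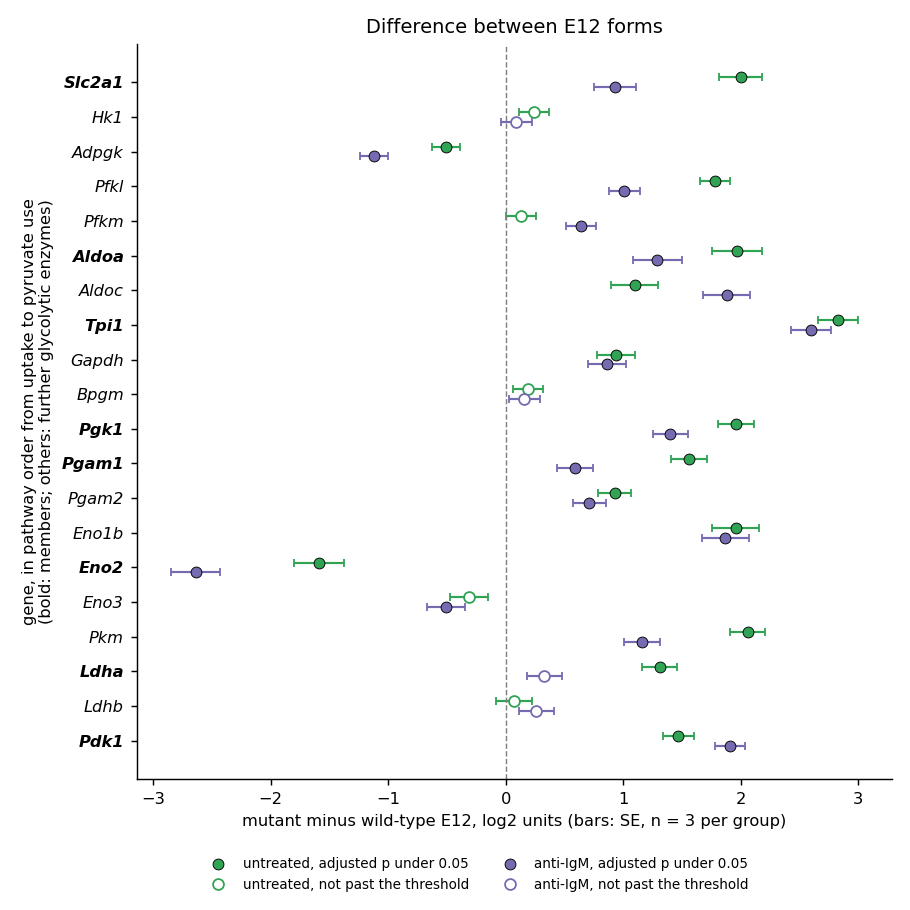
Mutant minus wild-type E12 (x axis, log2 units, bars SE, 3 arrays per group) in untreated cells (green) and with anti-IgM (purple) for the 8 measured genes in bold and 12 further glycolytic enzymes, in pathway order (y axis); filled points passed an adjusted p of 0.05. Eno2 is the gene in bold to the left of 0, at -1.59 and -2.64.

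The remaining enzymes of glycolysis were less uniform. Of 12 tested, 3 rose and 2 fell with anti-IgM and wild-type E12 and 0 passed with mutant E12. Of all genes 15.1% rose and 16.2% fell in the former comparison and 0.229% passed in the latter. Pkm, which makes pyruvate in the last step, was at 11.66, 12.06 and 12.13 untreated and at 12.77, 12.70 and 12.80 treated with wild-type E12. It rose by 0.81 ± 0.15 (adjusted p = 0.00115), and the difference of its responses was -0.90 ± 0.22 (adjusted p = 0.0228). Aldoc, another aldolase, moved against Aldoa (-0.87 ± 0.20, adjusted p = 0.00425). Between the forms in untreated cells 6 of the 12 were higher with the mutant (20.4% of all genes) and 1 was lower (22.2%), led by Pkm (2.06 ± 0.15) and Eno1b (1.96 ± 0.20). Eno1b is a retrotransposed copy of the main enolase gene, from which its probe may not be told apart. Another Pkm probe gave 0.11 for the response and 0.15 for the form difference, neither past the threshold, so the Pkm probes disagreed. Pfkl, the liver-type phosphofructokinase, and Adpgk, the ADP-dependent glucokinase, are named after their values were seen. Pfkl rose by 0.80 ± 0.13 with anti-IgM and wild-type E12 and was 1.78 ± 0.13 higher with mutant E12 in untreated cells, but a further Pfkl probe gave 0.18 and 0.31, neither past the threshold. Adpgk rose by 1.01 ± 0.12 with anti-IgM and wild-type E12 (adjusted p = 2.37e-05) and was lower with mutant E12, with differences of -0.51 ± 0.12 in untreated and -1.12 ± 0.12 in treated cells. Further Adpgk probes rose as well (0.56 and 0.45) and gave 0.26 and -0.06 between the untreated forms, neither past the threshold. The median of the 12 was 0.08 in the response with wild-type E12 and 0.59 between the untreated forms.

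Of 7 other sugar and lactate carriers tested, 0 rose and 2 fell with anti-IgM and wild-type E12 (15.1% and 16.2% of all genes), or 1 fell without untreated replicate 1. Slc2a6, a glucose transporter family member of lysosomal membranes, was at 11.97, 11.83 and 11.83 untreated and at 10.38, 10.31 and 10.42 treated with wild-type E12. It fell in both forms, with changes of -1.51 ± 0.13 (adjusted p = 2.27e-06) and, with mutant E12, -0.75 ± 0.13 (adjusted p = 0.0304). The difference of 0.76 ± 0.19 passed (adjusted p = 0.0245). Slc2a3 (GLUT3) and Bsg, the chaperone of lactate carriers, were higher with mutant E12 in untreated cells by 0.74 ± 0.21 and 0.49 ± 0.14 (adjusted p = 0.0109 and 0.0107). Without wild-type E12 untreated replicate 1 the Slc2a3 difference was 0.52 and missed the threshold (adjusted p = 0.0509), and that of Bsg was 0.46 (adjusted p = 0.0293). The median of the 7 was -0.05 in the response and 0.23 between the untreated forms.

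Genes around the pathway were mixed. In the pyruvate dehydrogenase list 1 of 7 passed with anti-IgM and wild-type E12, where 31.3% of all genes did. It was Pdp2, the phosphatase that reverses the action of Pdk1. Pdp2 rose by 0.73 ± 0.18 (adjusted p = 0.00573) and was lower with mutant E12 in untreated cells (-0.98 ± 0.18, adjusted p = 0.000488), in both cases opposite in sign to Pdk1. Further Pdp2 probes gave -0.89 and -0.22 between the untreated forms, of which the latter missed the threshold (adjusted p = 0.359). Pfkfb4, which sets fructose 2,6-bisphosphate, changed by -0.70 ± 0.20 with anti-IgM and wild-type E12 (adjusted p = 0.0137; -0.47 and adjusted p = 0.0552 without untreated replicate 1), and a further probe of it gave 0.30. Of 7 pentose phosphate genes 1 rose and 2 fell (15.1% and 16.2% of all genes). Pgls changed by -0.79 ± 0.20 (adjusted p = 0.008), but further Pgls probes gave 0.09 and 0.17, and Prps2 changed by -0.40 ± 0.12 (adjusted p = 0.0228, or 0.0698 without untreated replicate 1). The riser was Prps1, which makes the ribose donor of nucleotide synthesis, at 9.17, 9.11 and 9.05 untreated and 10.38, 10.39 and 10.38 treated (1.27 ± 0.12, adjusted p = 3.28e-06). The difference of its responses was -1.0 ± 0.17 (adjusted p = 0.00369). In the tricarboxylic acid cycle 2 of 15 rose and 2 fell, where 15.1% and 16.2% of all genes did. Among those that fell was Fh1, fumarase (-0.51 ± 0.18, adjusted p = 0.0448), with a further probe at -0.25 (adjusted p = 0.222). In the test of the difference of responses 0 of 15 passed, where 6.95% of all genes did. Between the untreated forms 6 of these 15 were higher and 4 lower (20.4% and 22.2% of all genes), or 6 and 3 without wild-type E12 untreated replicate 1. Sdhb was 0.84 ± 0.19 higher, with further probes at 0.78 and 0.05, and Fh1 differed by -1.19 ± 0.18, with a further probe at -0.50. Of the 2 gluconeogenesis genes tested, G6pc3 rose by 0.58 ± 0.18 (adjusted p = 0.0216; 0.41 and adjusted p = 0.0903 without untreated replicate 1).

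Of 21 regulators of glycolytic genes, 2 rose and 2 fell with anti-IgM and wild-type E12 (15.1% and 16.2% of all genes). With mutant E12 0 of the 21 passed (0.229% of all genes). Myc was at 6.30, 6.89 and 6.99 untreated and at 8.46, 8.28 and 8.36 treated with wild-type E12, a rise of 1.64 ± 0.22 (adjusted p = 6.37e-05). With mutant E12 it was at 6.90, 6.49 and 7.26 untreated and 6.60, 7.05 and 7.23 treated, and the difference of responses was -1.56 ± 0.31 (adjusted p = 0.00847). Txnip, which opposes glucose uptake, moved the opposite way, from 11.31, 11.19 and 11.22 to 9.11, 9.60 and 9.70 with wild-type E12. Its change was -1.77 ± 0.19 (adjusted p = 9.62e-06) and its difference of responses was 1.37 ± 0.26 (adjusted p = 0.00765). Hif1a, a subunit of HIF-1, rose by 0.56 ± 0.13 with wild-type E12 (adjusted p = 0.00564), and its responses did not pass the test of their difference (-0.49, adjusted p = 0.149).

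Between the untreated forms Myc and Hif1a did not pass (0.16 and -0.20, adjusted p = 0.585 and 0.254). Txnip was higher with the mutant by 1.32 ± 0.19 (adjusted p = 7.5e-05). Egln3, an oxygen-dependent hydroxylase that marks HIF for degradation and is itself a textbook HIF-1 target, was at 8.53, 6.95 and 6.96 with wild-type E12 and at 9.99, 10.34 and 10.35 with mutant E12. Its difference of 2.75 ± 0.34 (adjusted p = 2.57e-05) was the largest of the 21, and its highest wild-type E12 value came from replicate 1. In all, 3 of the 21 regulators were higher and 4 lower with the mutant in untreated cells (20.4% and 22.2% of all genes), with a median of -0.07. Without wild-type E12 untreated replicate 1, 2 were higher and 4 lower.

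**Figure D4:**
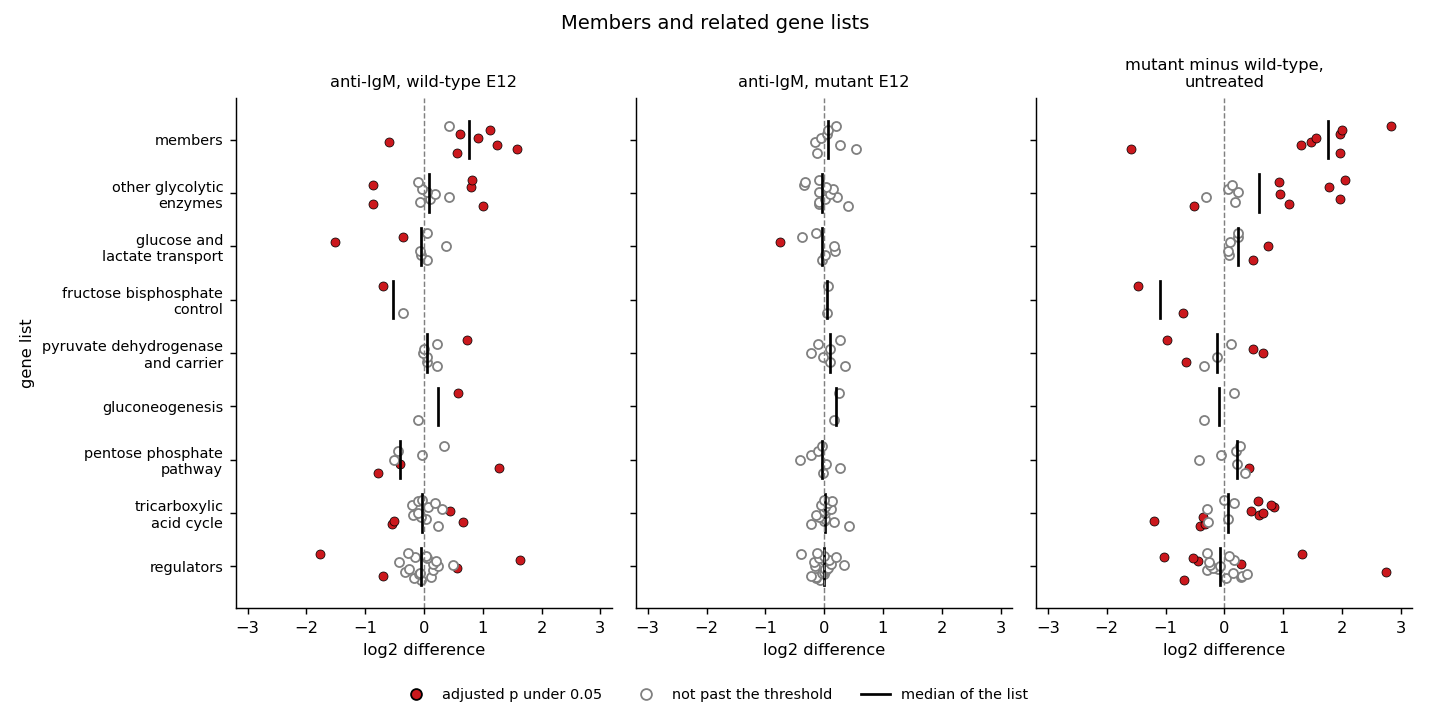
Log2 difference (x axis) of each tested gene in 9 lists (y axis) for anti-IgM with wild-type E12, anti-IgM with mutant E12, and mutant minus wild-type E12 untreated; red points passed an adjusted p of 0.05 and the black bar is the median of the list. The top list, the 8 measured genes, has medians of 0.77, 0.06 and 1.76.

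The genes differed in how closely they followed each other over the 12 arrays once the mean of each E12 form was taken out. The correlation of a gene with the mean of the other 7 was 0.967 for Pgam1, 0.950 for Ldha, 0.915 for Pgk1 and 0.895 for Eno2. It was 0.780 for Aldoa, 0.736 for Tpi1 and 0.507 for Slc2a1, and -0.867 for Pdk1, the gene that fell. Of the tested genes outside all lists, those most like the mean of the 8 were Smu1 (r = 0.982), Eif6 (0.980), Stip1 (0.980), Poldip2 (0.978) and Cct3 (0.976). They encode a splicing factor, a ribosome assembly factor, a co-chaperone, a DNA polymerase interacting protein and a chaperonin subunit. Their responses with wild-type E12 ran from 0.77 for Poldip2 to 1.5 for Eif6, and with mutant E12 from 0.04 to 0.39. These correlations are descriptions over 12 arrays that share the treatment.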

How the data were processed

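RNA was hybridised to Illumina bead arrays, 12 in all. The analysis started from the deposited intensity of each probe, on a linear scale that reaches below 0. The authors had background-subtracted and normalized them, as read from the values: medians were 6.93 to 6.94 with wild-type E12 and 6.40 with mutant E12. The sources used here do not give the methods. Biotin-labelled cRNA was made from total RNA, per the labels' protocols. A table of signals before normalization had 12 columns whose names match no sample, and these were not used here.

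Joint quantile normalization of the 12 arrays was followed by log2 of the deposited intensity plus 50, which understates changes of dim probes. The detection limit was set from the spread of values below 0 at p 0.01, which gave 12.9 for wild-type E12 arrays and 15.6 to 15.7 for mutant E12 arrays. The number of arrays limits the precision. Of 45281 probes 34885 had 1 symbol, 18 several and 10378 none; 34807 were looked up by Entrez identifier and 0 symbols changed. The filter kept 19715 probes, and the brightest probe was taken for each of 10050 genes. Differences were tested with limma 3.58.1 in R 4.3.3 (lmFit and eBayes, two-sided, 1 fit with 4 group means, 8 residual and 6.25 prior degrees of freedom). Benjamini-Hochberg adjustment ran over the genes in each of 5 comparisons, with a threshold of 0.05. A fit over all kept probes served further probes of a gene. The fit was tested on simulated data. Promoter sequences are from RefSeq.

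Same-numbered wild-type E12 arrays deviated together (r = 0.289, 0.177 and 0.185). Replicates 2 and 3 also did so across numbers (0.153 and 0.121), whereas replicate 1 did not with either (-0.245 to -0.18). The same-numbered mutant E12 arrays did not all deviate together (0.608, -0.0455 and 0.547), and differently numbered ones reached 0.405 and 0.491. Whether the numbers mark pairs cannot be told from these values. The replicate block is given as an alternative beside wild-type E12 results where it changed a call.

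The genes, lists and tests were chosen with earlier results of these data known. Named genes were the measured 8 with all probes, Tcf3, Myc, Hif1a and Txnip, from each pathway list up to 3 genes with the largest change among those called, and the 5 genes with the most similar pattern. Alternatives were the probe choice, the joint normalization, the offset (16 or 100), the filter, an intensity trend, array weights, the replicate block, fits of the compared groups alone, and each array left out.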

Additional observations from a re-analysis of the deposited data

Results flagged for a closer look

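Each gene below stands out because its anti-IgM response differed between the E12 forms in the direct test (limma, Benjamini-Hochberg over 10050 genes). The values are the response with mutant E12 minus that with wild-type E12 in log2 units, with the SE. Among the glycolytic genes these were Slc2a1 (-1.06 ± 0.26, adjusted p = 0.0246), Pgam1 (-0.97 ± 0.22, adjusted p = 0.0156), Ldha (-0.98 ± 0.21, adjusted p = 0.0138) and Eno2 (-1.05 ± 0.30, adjusted p = 0.0473). In the further pathway lists they were Pkm (-0.90 ± 0.22, adjusted p = 0.0228), Pfkl (-0.77 ± 0.19, adjusted p = 0.0257), Adpgk (-0.61 ± 0.17, adjusted p = 0.0414), Prps1 (-1.0 ± 0.17, adjusted p = 0.00369), Myc (-1.56 ± 0.31, adjusted p = 0.00847), Txnip (1.37 ± 0.26, adjusted p = 0.00765) and Slc2a6 (0.76 ± 0.19, adjusted p = 0.0245). For Txnip and Slc2a6 the positive sign means a smaller fall with the mutant. The 5 genes of similar pattern also passed: Smu1 (-0.96 ± 0.24, adjusted p = 0.0286), Eif6 (-1.15 ± 0.28, adjusted p = 0.0246), Stip1 (-0.89 ± 0.25, adjusted p = 0.0436), Poldip2 (-0.73 ± 0.19, adjusted p = 0.0319) and Cct3 (-1.05 ± 0.27, adjusted p = 0.0299). These 5 were picked for a pattern over the same arrays, so their values are a description. Without wild-type E12 untreated replicate 1, Adpgk, Stip1 and Poldip2 missed the threshold (adjusted p = 0.0516, 0.0559 and 0.0533). Further probes gave -0.09 for Eif6, -0.27 for Smu1, -0.07 for Pkm and -0.25 for Pfkl (adjusted p from 0.55 to 0.883 over all probes). They gave -0.72 for Poldip2 (adjusted p = 0.056), -0.76 for Pgam1 (adjusted p = 0.0766), and -0.71 and -0.34 for Adpgk (adjusted p = 0.0706 and 0.398). The calls of Slc2a1 and Eno2 were lost on leaving out certain single arrays, as given above. Both were also lost without the joint quantile step (adjusted p = 0.0787 and 0.121).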

How the results depend on the processing

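The counts of the 8 genes called kept within 1.5 times under the alternatives run, with these exceptions. The difference of responses passed for 2 genes in place of 4 with no joint quantile step. The response with mutant E12 passed for 1 gene, Eno2, in place of 0 with array weights, where 7.13% of all genes passed. On leaving out each array in turn the count ran from 6 to 8 for the response with wild-type E12, was 0 throughout for the mutant, ran from 2 to 4 for their difference, was 8 throughout between the untreated forms and ran from 7 to 8 between the treated forms. Signs turned only in uncalled mutant E12 responses with an array left out: Slc2a1 ran from -0.08 to 0.26, Aldoa from -0.27 to 0.06, Pgk1 from -0.01 to 0.15 and Pgam1 from -0.11 to 0.07. The Aldoa response with wild-type E12 missed the threshold with offsets of 16 and 100 (adjusted p = 0.072 and 0.0626), no filter (0.063), no joint step (0.0911) and the shared replicate block (0.0624). The Eno2 difference missed it with offset 16 (-0.93, adjusted p = 0.174) and no filter (adjusted p = 0.0543). The cause was not tested.

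With replicate number as a block shared by all groups, the numbers of genes called over all genes were 3145 for the response with wild-type E12, 25 for the mutant and 703 for the difference, against 3148, 23 and 698 without it. As a replicate block within form they were 3929, 215 and 1402; of the 8 genes only Tpi1 (response with wild-type E12) and Pgk1 (difference) gained a call there. Over all alternatives other than leaving out an array, these counts ran from 2760 to 5196, 7 to 717 and 385 to 2327, and on leaving out 1 array from 2296 to 3365, 2 to 57 and 373 to 809. Between the forms 4283 genes were called untreated (3556 to 6106, or 3384 to 4485 with an array left out) and 4368 treated (3707 to 5341, or 3574 to 4728).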
